A study of Mus musculus with 64 samples.

Results

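Genes of thymocyte maturation were followed through bulk RNA-seq of mouse regulatory T (Treg) cells. The genes were *Rag1*, *Rag2*, *Dntt*, *Ptcra*, *Cd24a*, *Ccr9*, *Satb1*, *Themis*, *Cd4* and *Cd8a*. They were chosen by name for their part in T cell development, with earlier results of these data known. They make up 10 of the 55809 genes in the count tables. The study asked when in the life of a Treg cell the transcription factor Foxp3 is needed, by removing Foxp3 protein in some mice and by switching a silent *Foxp3* gene on in others. Its 64 libraries fall into 28 groups, and all cells were sorted by flow cytometry.

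In the degron experiment, every mouse carried Foxp3-AID, a Foxp3 protein joined to an auxin-inducible degron, and every mouse received 5-ph-IAA for 7 days. The TIR1 groups also carried TIR1(F74G) at ROSA26, a plant ligase adaptor that marks the tagged protein for destruction once 5-ph-IAA is present. The WT groups had the unmodified ROSA26 locus and thus received the drug without the ligase. TIR1 was switched on by a Foxp3-driven Cre, and the adult mice were heterozygous females, which keep other Treg cells with untagged Foxp3. For its neonatal mice the study lists hemizygous males, in which all Treg cells carry the tagged protein. Adult mice gave CD73-negative thymic Treg cells and active Treg cells of spleen and lymph nodes, with 3 TIR1 and 3 WT libraries each. Infant mice gave spleen and lymph node Treg cells that were not split by activation, with 4 libraries per genotype title. Adult resting cells of this experiment were not analysed here.

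In the experiment with the reversible allele, a cassette kept *Foxp3* from making functional protein, so the sorted cells transcribed the locus without Foxp3 ("Treg wannabe" cells). PlusFoxp3 mice had the genotype Foxp3-LSLCD4-CreERT2, in which 4-hydroxytamoxifen (4-OHT) lets CreERT2 remove the cassette. MinusFoxp3 mice had the genotype Foxp3-LSLCD4-WT and lacked CreERT2. By the study's account both were heterozygous females, which also hold Treg cells with functional Foxp3 from the other allele. Resting and active cells were taken from untreated mice (day 0) and 3, 7, 14 and 28 days after 4-OHT, with 2 libraries per group. After 4-OHT the study sorted plusFoxp3 cells as GFP positive. It sorted minusFoxp3 cells as GFP negative and positive for Thy1.1, the reporter of the silent allele. Untreated Foxp3GFP mice gave 2 resting and 2 active GFP Treg libraries.

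The labels of the degron experiment contradict each other. Each adult file is recorded under one ROSA26 genotype, whereas by the labels the library name in its header is that of the other. The header name was followed here, and the genotype in each adult file's own name matches it. The opposite choice turns the sign of every adult TIR1 versus WT value. It leaves the comparison of thymus with active cells over both genotypes as it is and swaps the names of WT and TIR1 in values of a single genotype. For infants the titles and the genotype field disagree, so they go by title here (titled TIR1, titled WT), with the direction of that contrast unsettled. *Foxp3* mRNA, which the degron does not target, lay at 144 to 181 CPM (counts scaled to the library total) in the thymic libraries and 76.7 to 127 CPM in active adult degron libraries. In the reversible allele it lay at 44.3 to 81.5 CPM in minusFoxp3 cells and at 426 to 615 CPM in plusFoxp3 cells of days 3 to 28. Read pairs counted in genes were 27753211 to 34029692 per library in degron adults, 33704114 to 55801009 for infants, and 35097257 to 57419138 for the remaining 44 libraries. The degron libraries and the other 44 were counted with different settings.

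T cell precursors first rearrange the beta chain of the T cell receptor and pair it with pre-Tα, the product of *Ptcra*. The RAG1 and RAG2 proteins together cut the receptor genes, and terminal deoxynucleotidyl transferase, encoded by *Dntt*, adds bases at the joints. Double-positive thymocytes carry both coreceptors, CD4 and CD8, and after positive selection they keep one of them. THEMIS and the chromatin organiser SATB1 act around positive selection. CD24 is lost from the surface as thymocytes mature, and CCR9 is a receptor for the chemokine CCL25 of thymus and gut. Cells fresh from the thymus can therefore still hold transcripts of these genes, and so can plasmacytoid dendritic cells in the case of *Dntt*, *Ptcra* and *Ccr9*.

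In the GRCm39 annotation *Rag1* (chromosome 2, 101468627 to 101479846, minus strand) and *Rag2* (chromosome 2, 101455063 to 101462874, plus strand) are neighbours within the span of *Iftap*. *Dntt* lies on chromosome 19 (41017714 to 41047964), *Ptcra* on chromosome 17 (47066589 to 47074638) and *Cd24a* on chromosome 10 (43454280 to 43460261). *Ccr9* is on chromosome 9 (123507504 to 123613395), *Satb1* on chromosome 17 (52043215 to 52140318) and *Themis* on chromosome 10 (28544356 to 28759814). *Cd4* (124841655 to 124865184) and *Cd8a* (71350411 to 71356157) are both on chromosome 6. Counts were made over exons without strand. The spans of *Ccr9*, *Satb1* and *Themis* hold 4, 1 and 2 genes of the opposite strand, so part of their reads could belong to those genes. *Cd24a* has near-identical copies elsewhere in the genome, which makes its level uncertain.

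The RefSeq promoter table of build GRCm38.p6 held 8 of the 10 genes, without *Cd24a* and *Cd4*. The promoters of 4 genes are shown to set a pair of genes found in thymic but hardly in active degron cells, *Dntt* and *Cd8a*, beside a pair without a read in thymic libraries, *Rag1* and *Ptcra*. The part of the counting settings in those zeros, described below, was not tested. Each sequence is the 250 bases before the start, read 5′ to 3′ on the gene's strand, at chr2:101649533-101649782 (minus) for *Rag1*, chr17:46763713-46763962 (minus) for *Ptcra*, chr19:41029025-41029274 (plus) for *Dntt* and chr6:71373177-71373426 (plus) for *Cd8a*. Capitals mark matches on either strand to the E-box CAGCTG, the RUNX-type motif TGTGGT, the TCF-type motif CTTTGA, the GATA-type motif AGATAA and the forkhead-type motif TAAACA.
Rag1: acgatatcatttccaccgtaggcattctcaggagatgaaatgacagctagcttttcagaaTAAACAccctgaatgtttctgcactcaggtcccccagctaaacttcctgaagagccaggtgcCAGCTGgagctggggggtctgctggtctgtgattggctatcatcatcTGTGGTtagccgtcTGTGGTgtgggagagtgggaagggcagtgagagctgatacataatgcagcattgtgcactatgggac
Ptcra: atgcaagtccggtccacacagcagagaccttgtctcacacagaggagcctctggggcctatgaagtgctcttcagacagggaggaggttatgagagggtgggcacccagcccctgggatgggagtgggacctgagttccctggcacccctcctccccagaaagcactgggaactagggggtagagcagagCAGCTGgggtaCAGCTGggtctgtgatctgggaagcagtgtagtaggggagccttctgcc
Dntt: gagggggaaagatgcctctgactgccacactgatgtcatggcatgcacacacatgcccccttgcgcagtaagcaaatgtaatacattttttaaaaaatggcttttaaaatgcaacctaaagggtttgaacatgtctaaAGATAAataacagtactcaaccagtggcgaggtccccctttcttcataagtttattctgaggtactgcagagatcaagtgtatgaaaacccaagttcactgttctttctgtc
Cd8a: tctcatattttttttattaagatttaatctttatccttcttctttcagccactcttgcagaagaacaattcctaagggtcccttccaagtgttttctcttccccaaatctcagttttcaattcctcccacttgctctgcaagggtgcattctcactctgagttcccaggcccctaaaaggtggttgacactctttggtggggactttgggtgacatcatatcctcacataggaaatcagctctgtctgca
The *Rag1* window held 1 CAGCTG, 2 TGTGGT and 1 TAAACA, and the *Ptcra* window held 2 CAGCTG. The *Dntt* window held 1 AGATAA, and the *Cd8a* window held none of the 5. The looser E-box CANNTG, which includes CAGCTG, occurred 3, 2, 3 and 2 times in the order printed. Of 32851 promoter windows of this length, 66.2% held CANNTG, 13.0% CAGCTG, 14.0% TGTGGT, 13.8% CTTTGA, 9.99% AGATAA and 12.0% TAAACA. The 4 windows thus share only the motif that most promoters hold, and the pair found in thymic cells has no capital motif in common.

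Thymic Treg cells differed from active Treg cells in 6 of the 7 maturation genes that had enough reads to test. *Cd8a*, *Cd24a*, *Dntt*, *Satb1* and *Themis* were higher in the thymus, by 2.07-fold for *Themis* to at least 344-fold for *Cd8a*. *Cd4* was lower in the thymus by 1.40-fold, and *Ccr9* did not pass the threshold. *Rag1*, *Rag2* and *Ptcra* had no read in any thymic library. Tissue and activation cannot be told apart in this comparison, since 4 genes of active cells summed to 219 to 279 CPM in the thymus and 1240 to 1727 CPM in active cells, and 4 proliferation genes to 10.003 to 36.1 CPM and 158 to 236 CPM. Over all 14769 genes tested, 34.4% were called in this comparison, 14.8% higher and 19.7% lower, and the median log2 difference was -0.02 against 3.18 for the 7 tested maturation genes. *Cd8a*, *Dntt* and *Cd24a* had enough reads to test only through the thymic libraries, and the genes were chosen with earlier results known. Both favour a thymic excess, so the number of calls and the median are a description only. The 6 thymic libraries and the 6 active adult degron libraries were fitted together with edgeR's quasi-likelihood test, with WT and TIR1 weighted equally, at a Benjamini-Hochberg adjusted p of 0.05. The study describes the replicates of the adult degron and reversible-allele groups as independent biological ones. For the infant groups the sources used here do not say this, so their p-values measure a spread between libraries that may be technical.

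**Figure D1:**
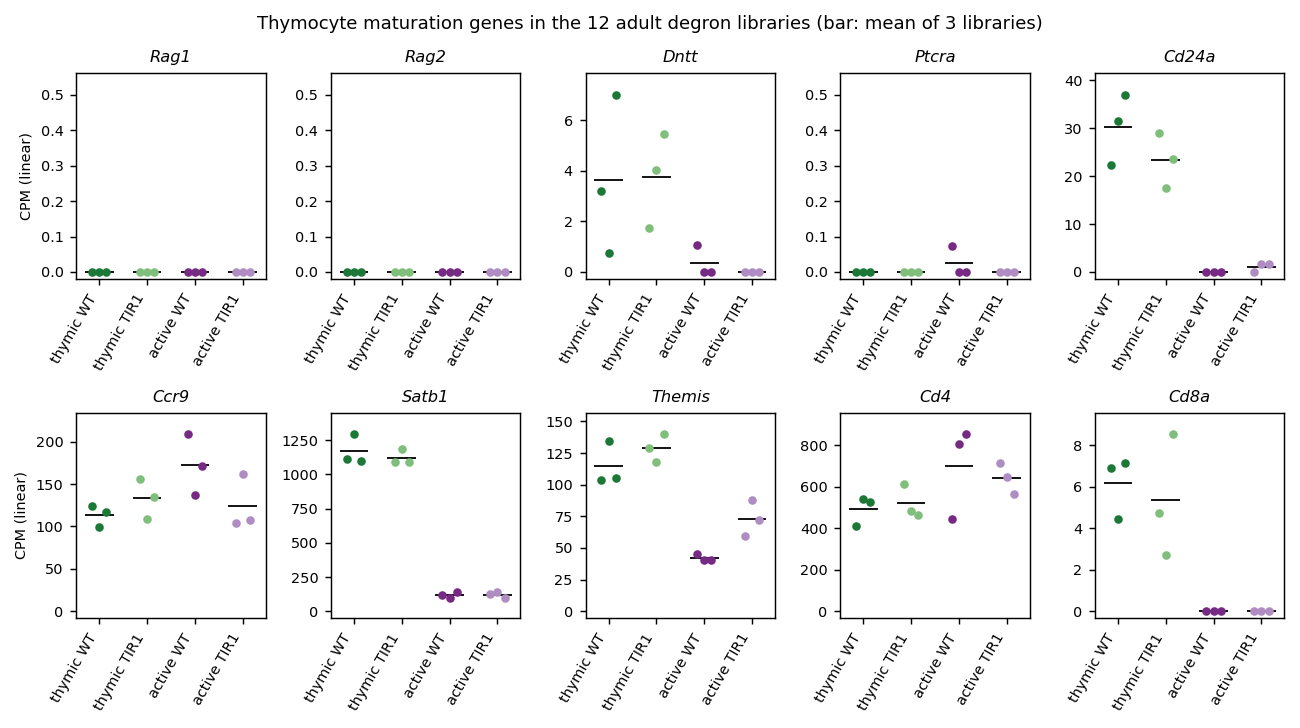
Levels of the 10 genes in the 12 adult degron libraries, in CPM on linear axes, with 1 point per library and a bar at the mean of 3. *Satb1*, *Themis*, *Cd24a* and *Cd8a* of the 6 thymic libraries lie above all 6 active libraries, *Rag1* and *Rag2* lie at 0 throughout, and *Ccr9* and *Cd4* overlap between the tissues.

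The recombination genes split within this set. *Rag1* and *Rag2* had 0 reads in each of the 20 degron libraries, infants included, among 747351229 counted read pairs in all, which allows a level of up to 0.00401 CPM by counting error alone. For the 6 thymic libraries the limit was 0.0162 CPM. *Dntt*, in contrast, had 90, 22 and 204 reads in thymic WT replicates 1 to 3, or 3.19, 0.736 and 7.03 CPM. Thymic TIR1 replicates had 1.74, 4.06 and 5.46 CPM of *Dntt*. Among active cells 5 of 6 libraries had no *Dntt* read and WT replicate 1 had 30 reads, or 1.08 CPM. The groups therefore overlapped, with that active library above the lowest thymic one. Across both genotypes *Dntt* was 6.52 ± 1.52 (SE) higher in the thymus on the log2 scale, 91.7-fold, with an edgeR adjusted p of 7.24e-03. In WT libraries alone, with the 30 reads of one active library, the log2 difference was 3.23 and the edgeR adjusted p was 0.306. In TIR1 libraries alone, where active cells had no read, *Dntt* was at least 109-fold higher in the thymus. In bulk RNA, fewer cells that hold a transcript and less transcript per cell cannot be told apart, here and in all results that follow.

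*Ptcra* had 0 reads in the 6 thymic libraries and 2 reads in active WT replicate 1, the library that also held the *Dntt* reads. The degron libraries were counted with a mapping quality filter that the headers of the other 44 do not show, and its part in these zeros was not tested. Of all genes, 23767 or 42.6% had no read in the 20 degron libraries, and 2358 of these, 9.92%, had a read in at least 40 of the other 44 libraries. *Rag1* and *Rag2* belong to that class. In the other 44 libraries *Rag1* had 3 to 21 reads per library (0.0580 to 0.408 CPM, median 0.187), *Rag2* 0 to 10 reads and *Ptcra* 1 to 28 reads (0.0234 to 0.532 CPM, median 0.127). Levels of the 3 genes near a few reads thus cannot be compared across the counting settings.

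*Cd8a*, the alpha chain of the CD8 coreceptor, had 93 to 263 reads in each thymic library and 0 reads in each active adult degron library. Thymic WT cells had 6.92, 4.45 and 7.16 CPM and thymic TIR1 cells 4.76, 2.73 and 8.55 CPM. With 1051 reads against none, *Cd8a* was at least 344-fold higher in the thymus, with the floor taken as 3 reads over the 6 active libraries. The fitted log2 difference was 10.42 ± 0.818 (SE), with an edgeR adjusted p of 2.01e-05. Within genotypes the bound was at least 192-fold in WT and at least 155-fold in TIR1 cells. All cells were sorted as CD4 positive, so the gate sets part of the level of *Cd8a* and *Cd4*. The partner chain *Cd8b1* lay at 46.9 to 58.9 CPM in the thymus and at 11.1 to 20.6 CPM in active cells, with no overlap. A summed list of 8 CD8 T and NK cell markers, *Cd8b1* among them, lay at 98.6 to 118 CPM in the thymus and at 65.7 to 176 CPM in active cells. Its part in the *Cd8a* difference was not tested.

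*Cd24a*, whose surface protein is lost as thymocytes mature, had 22.2, 31.5 and 37.0 CPM in thymic WT and 29.0, 17.5 and 23.7 CPM in thymic TIR1 cells. Active WT cells had no *Cd24a* read, and active TIR1 cells had 0, 1.65 and 1.64 CPM. Every thymic library thus lay far above every active one. The log2 difference was 8.58 ± 0.958 (SE), with an edgeR adjusted p of 5.72e-05, and in WT libraries *Cd24a* was at least 947-fold higher in the thymus.

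The genes around positive selection were abundant in the thymus. *Satb1* had 1115, 1297 and 1097 CPM in thymic WT and 1090, 1186 and 1094 CPM in thymic TIR1 libraries. Active WT cells had 121, 96.7 and 138 CPM of *Satb1* and active TIR1 cells 128, 138 and 97.5 CPM. With no overlap, *Satb1* was 9.07-fold higher in the thymus (log2 3.18 ± 0.108 SE, edgeR adjusted p = 1.30e-09). *Themis* had 103, 135 and 105 CPM in thymic WT libraries and 129, 118 and 140.1 CPM in thymic TIR1 libraries. In active cells *Themis* lay at 40.4 to 45.4 CPM in WT and at 59.3 to 87.9 CPM in TIR1 libraries. These groups did not overlap either, and *Themis* was 2.07-fold higher in the thymus (log2 1.05 ± 0.116 SE, edgeR adjusted p = 1.90e-05).

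*Ccr9* and *Cd4* had lower means in the thymus. *Ccr9* had 124, 99.5 and 117 CPM in thymic WT, 156, 109 and 134 CPM in thymic TIR1, 209, 137 and 172 CPM in active WT and 105, 161 and 107 CPM in active TIR1 libraries. The tissues overlapped, and the log2 difference of -0.33 ± 0.142 (SE) had an edgeR adjusted p of 0.0923. In WT libraries alone *Ccr9* was lower in the thymus, by -0.70 on the log2 scale with an edgeR adjusted p of 0.0400. *Cd4* had 409 to 615 CPM in the thymus and 442 to 854 CPM in active cells, and its log2 difference of -0.48 ± 0.149 (SE) had an edgeR adjusted p of 0.0241. That call was fragile. It was lost in WT libraries alone (log2 -0.60, edgeR adjusted p = 0.137), in TIR1 libraries alone (log2 -0.35, edgeR adjusted p = 0.0871) and without any one of 6 of the 12 libraries, namely thymic WT 1, thymic TIR1 2 and 3, active WT 2 and 3 and active TIR1 1, at edgeR adjusted p of 0.0593 to 0.0665.

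Levels of different genes were compared per length, as TPM, counts per exon length scaled to a common total. In the thymus the medians of 6 libraries ran from *Cd4* (369 TPM) and *Satb1* (175 TPM) through *Ccr9* (34.5 TPM), *Themis* (32.2 TPM) and *Cd24a* (31.0 TPM) to *Cd8a* (4.82 TPM) and *Dntt* (4.70 TPM). In active adult degron cells *Cd4* (483 TPM) was followed by *Ccr9* (42.0 TPM), *Satb1* (18.0 TPM) and *Themis* (12.6 TPM), with medians of 0 for the other genes. *Satb1* thus moved from above *Ccr9* to below it.

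Other genes of the same programme, in lists chosen with earlier results of these data known, were read beside the 10. Of 8 further double-positive thymocyte genes, 6 had enough reads, of which 5 were higher and 1 was lower in the thymus. Over all genes tested, 14.8% were higher and 19.7% lower. *Arpp21* (log2 6.56, edgeR adjusted p = 3.83e-04) and *Aqp11* (log2 6.11, edgeR adjusted p = 9.60e-04) were higher, as was *Cd8b1* (log2 1.79, edgeR adjusted p = 1.16e-06). The list's median log2 difference was 1.68 against -0.02 over all genes tested.

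Of 8 Notch and early thymocyte genes 6 were tested, 3 higher and 2 lower, with a median of 0.44. The shares of all genes tested, 14.8% higher and 19.7% lower, stand beside this list and those that follow. The T lineage factors *Bcl11b* (log2 0.91), *Gata3* (0.54) and *Tcf7* (0.47) were higher, and *Dtx1* (-3.19) and *Notch1* (-0.92) lower. Of 10 end-joining genes, which repair the breaks that RAG makes, 1 was higher (*Nhej1*, 0.67) and 1 lower (*Hmgb1*, -0.29), with a median of 0.17. Of 12 coreceptor lineage and positive selection genes 7 were higher, led by *Itm2a* (3.42), *Nr4a1* (1.93) and *Cd2* (1.17), and 3 were lower, *Runx3* (-3.28), *Runx1* (-0.83) and *Cd69* (-0.45), with a median of 0.40. Of 11 single-positive maturation and exit genes 6 were higher, among them *Ccr7* (1.93) and *Lef1* (1.75), and 5 were lower, led by *Ccr4* (-6.87), *Itgae* (-5.87) and *Nt5e* (-5.23), with a median of 0.58. *Nt5e* (CD73) was gated on, so its difference follows from the sort.

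The labels were checked against markers. The thymic libraries held 2555 to 3073 CPM over 6 Treg genes and 8874 to 9654 CPM over 6 T cell genes. Thymic epithelial markers summed to 14.6 to 29.1 CPM in the thymus and 5.11 to 11.9 CPM in active cells, with no read of *Foxn1* or *Cldn3* in the thymus. B cell markers were at 11.0 to 21.2 CPM against 31.3 to 57.8 CPM, and myeloid markers at 2.63 to 5.78 CPM against 3.51 to 14.0 CPM. Markers of plasmacytoid dendritic cells, 8 genes of which some are also transcribed in other lymphocytes, summed to 64.8 to 95.01 CPM in the thymus and 64.9 to 87.6 CPM in active cells. The defining genes *Siglech*, *Klk1* and *Cox6a2* had no read in any of the 6 thymic or the 6 active libraries. *Siglech* had no read in infants either and was read in each of the 44 libraries whose headers show no mapping quality filter, so these zeros have the same limit as those of *Rag1* and *Rag2*, and the part of such cells in the thymic *Dntt* level was not tested.

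The comparison of TIR1 with WT cells asked whether loss of Foxp3 protein for 7 days altered these genes. In thymic cells none of the 7 tested maturation genes passed the threshold with edgeR or DESeq2, and 0 had an unadjusted p under 0.05. Over all 14245 genes edgeR called 0 (0%), with 1050 at an unadjusted p under 0.05, and DESeq2 called 156. The log2 differences, TIR1 minus WT, were 0.04 for *Dntt*, -0.37 for *Cd24a*, -0.21 for *Cd8a*, -0.06 for *Satb1*, 0.17 for *Themis*, 0.23 for *Ccr9* and 0.08 for *Cd4*. The *Dntt* value carried a standard error of 0.817, so only large differences were detectable for that gene.

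In active cells 5 of the maturation genes had enough reads, and 0 passed the threshold with edgeR or DESeq2. Over all 14554 genes edgeR called 0 (0%), with 672 at an unadjusted p under 0.05, and DESeq2 called 21. Of the 5, 3 had an unadjusted p under 0.05. *Themis* was at 45.4, 40.8 and 40.4 CPM in WT and at 59.3, 87.9 and 72.4 CPM in TIR1 libraries, without overlap, a log2 difference of 0.76 ± 0.194 (SE) with an unadjusted p of 0.00395 and a DESeq2 adjusted p of 0.0964. *Cd24a* had 47 and 50 reads in TIR1 replicates 2 and 3 and none in the other 4 active libraries. It had enough reads to test only through those TIR1 libraries, so its place among the 3 is a description only. *Ccr9* differed by -0.51 on the log2 scale. *Satb1* (-0.01) differed little, and *Cd4* differed by -0.16. Leaving out 1 library moved *Cd4* between -0.40 without WT replicate 1 (edgeR unadjusted p = 0.0111, adjusted p = 0.241) and 0.00 without WT replicate 3.

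The genotype difference itself was compared between thymus and active cells. No maturation gene and 0 of 14769 genes (0%) passed with edgeR, with 4 of 7 maturation genes and 984 of all genes at an unadjusted p under 0.05, while DESeq2 called 71 genes and 1 maturation gene. That gene was *Cd24a*, with a difference between thymus and active cells of -8.47 on the log2 scale and an edgeR adjusted p of 0.613. It was called with DESeq2 (log2 -7.87, adjusted p = 0.0390) and by edgeR without active TIR1 replicate 1 (log2 -9.05, adjusted p = 0.0205). The reads behind it are the 97 of active TIR1 replicates 2 and 3.

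Infant Treg cells, from spleen and lymph nodes, had reads of 8 of the 10 genes, all but *Rag1* and *Rag2*. *Satb1* lay at 950, 999, 959.5 and 990.5 CPM in the libraries titled TIR1 and at 743, 699, 703 and 927 CPM in those titled WT. *Themis* lay at 97.8 to 150 CPM over the 8 libraries and *Cd4* at 563 to 751 CPM. *Satb1* thus lay between the adult thymic and active ranges, and closer to the thymic one, *Themis* overlapped the thymic range, and *Ccr9*, at 16.9 to 32.6 CPM, lay below every adult degron library. *Dntt* was read in all 8 infant libraries with 36 to 55 reads (0.746 to 1.25 CPM), *Cd8a* with 0.484 to 1.02 CPM and *Cd24a* with 1.08 to 3.81 CPM, each between the thymic and the active medians. *Ptcra* had 1 read and 6 reads in titled WT replicates 3 and 4 and none elsewhere. Infants were not tested against adults, since age, tissue and gate differ at once and cannot be told apart. By the study's account sex and the number of *Foxp3* alleles differ as well.

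Between the infant titles, 0 of 7 tested maturation genes passed with edgeR, beside 3 of 16209 genes (0.0185%), with 4 of the 7 and 2827 of all genes at an unadjusted p under 0.05. DESeq2 called 1107 genes and 2 maturation genes, *Satb1* (log2 0.36, adjusted p = 0.0102) and *Cd24a* (log2 -0.94, adjusted p = 0.0499). All log2 values are titled TIR1 minus titled WT. The edgeR values were 0.36 ± 0.0866 (SE) with an adjusted p of 0.0975 for *Satb1*, -0.95 ± 0.301 (SE) with 0.146 for *Cd24a* and -0.46 ± 0.165 (SE) with 0.183 for *Ccr9*. *Cd4* (0.19), *Dntt* (0.23), *Themis* (0.16) and *Cd8a* (0.39) had edgeR adjusted p of 0.203 to 0.720.

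Titled WT replicate 4 stood apart from the other 3 of its title. It had 927 CPM of *Satb1* against 699 to 743, and 19.2 CPM of *Ccr9* against 30.5 to 32.6, in both genes on the side of the libraries titled TIR1. Without it edgeR called *Satb1* (log2 0.47, adjusted p = 4.78e-04), *Ccr9* (-0.61, adjusted p = 0.00612) and *Cd24a* (-1.08, adjusted p = 0.0414), and 1774 genes in all. The result for infants thus rests on 1 library.

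**Figure D2:**
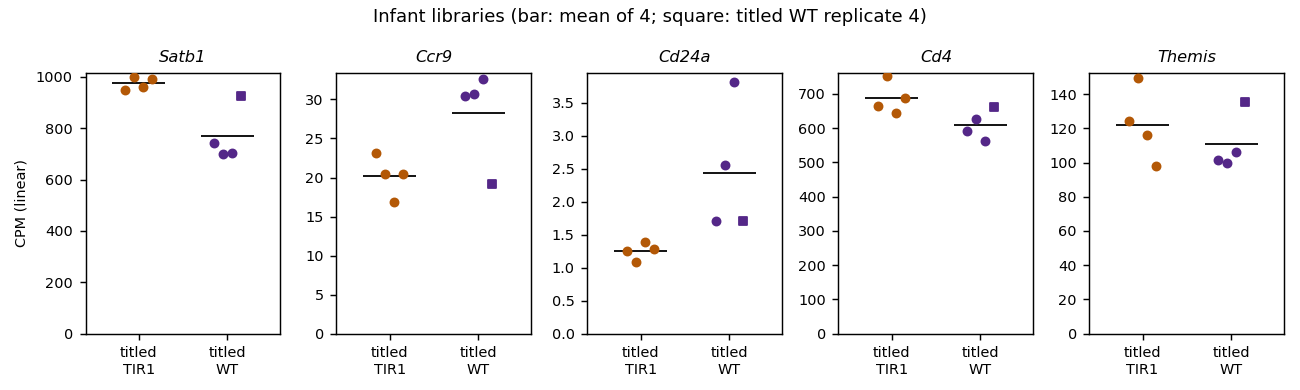
Levels of 5 genes in the 8 infant libraries, in CPM on linear axes, with 1 point per library and a bar at the mean of 4. The square marks titled WT replicate 4, which lies at 927 CPM of *Satb1* and 19.2 CPM of *Ccr9*, apart from the other 3 libraries titled WT.

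Resting and active cells were compared first among peripheral cells. In minusFoxp3 cells, where 37.9% of 20790 genes were called between the states, 5 of 7 tested maturation genes were called. *Cd24a*, *Satb1* and *Themis* were lower in active cells, and *Ccr9* and *Cd4* higher. Resting minusFoxp3 libraries had 471 to 681 CPM of *Satb1* with a median of 545, and active ones 67.3 to 138 CPM with a median of 100.3, without overlap. The active level was 5.61-fold lower (log2 -2.49 ± 0.125 SE, edgeR adjusted p = 4.29e-15).

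*Cd24a* fell from 2.37 to 7.28 CPM in resting cells to 0.158 to 1.47 CPM in active minusFoxp3 cells, 8.06-fold lower (log2 -3.01 ± 0.352 SE, edgeR adjusted p = 5.76e-08). *Themis* lay at 59.3 to 119.9 CPM in resting and 22.9 to 54.1 CPM in active cells, 2.32-fold lower (edgeR adjusted p = 1.12e-06). Both ranges were without overlap. *Ccr9* rose from 18.0 to 31.1 CPM in resting cells to 30.04 to 188 CPM in active cells, 4.50-fold higher (log2 2.17 ± 0.225 SE, edgeR adjusted p = 6.55e-09), with 1 active library inside the resting range. *Cd4* was 0.53 ± 0.079 (SE) higher on the log2 scale (edgeR adjusted p = 3.7e-06). *Dntt* (log2 0.49, edgeR adjusted p = 0.589) and *Cd8a* (log2 -0.70, edgeR adjusted p = 0.359) did not pass. Without 5 active libraries described below, *Dntt* was lower in active cells (log2 -4.03, edgeR adjusted p = 9.20e-06), and so was *Cd8a* (log2 -3.22, edgeR adjusted p = 0.00416). Those 5 libraries had the highest *Dntt* and *Cd8a* of the active minusFoxp3 cells. Leaving them out thus lowers both genes by choice and tests no cause.

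GFP Treg cells, with 2 libraries per state, gave 1 call among the 7, beside 3.12% of all genes. *Satb1* was at 398 and 443.5 CPM in resting and at 136 and 192 CPM in active GFP cells (log2 -1.38 ± 0.270 SE, edgeR adjusted p = 0.00355). It was not called when one replicate number was left out of all groups (edgeR adjusted p = 0.0514 and 0.200). *Dntt* was at 3.00 and 3.33 CPM in resting and at 1.23 and 0.270 CPM in active GFP cells. *Ccr9* was at 65.3 and 82.4 CPM in resting and at 77.6 and 188 CPM in active GFP cells, which overlapped.

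**Figure D3:**
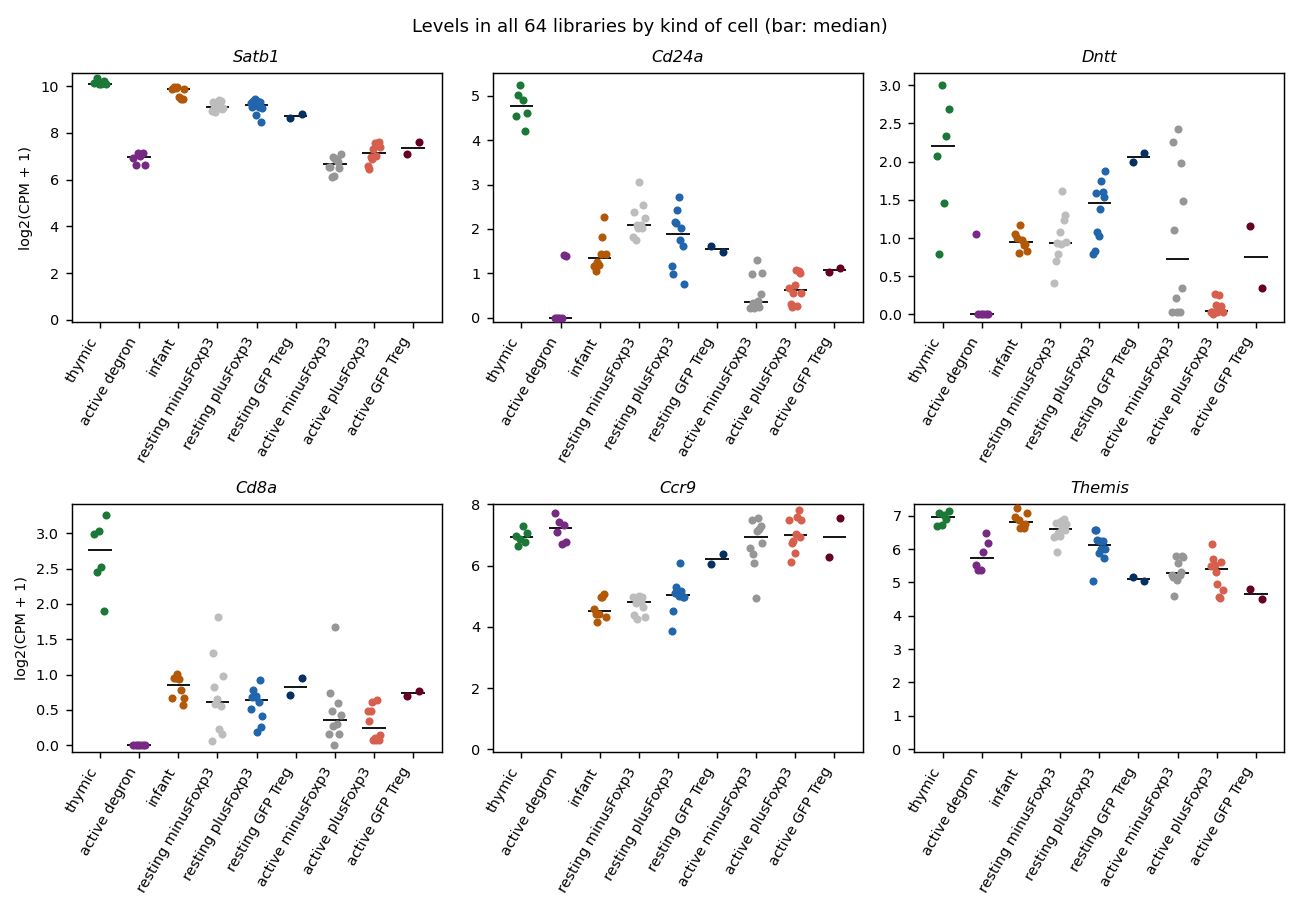
Levels of 6 genes in all 64 libraries by kind of cell, as log2(CPM + 1), with 1 point per library and a bar at the median. *Satb1*, *Cd24a* and *Themis* have their highest medians in thymic cells, *Ccr9* is lowest in infant cells, and *Dntt* spreads from near 0 to 4.38 CPM among active minusFoxp3 libraries. The degron and the other libraries were counted with different settings.

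The order of the kinds of cell differed from gene to gene. For *Satb1* the medians descended from thymic (1106 CPM) through infant (938), resting plusFoxp3 (582), resting minusFoxp3 (545) and resting GFP cells (421) to active GFP (164), active plusFoxp3 (143), active degron (125) and active minusFoxp3 cells (100.3). Thymic and infant ranges did not overlap and resting ranges lay above all active ranges, while neighbours among the resting kinds and among the active kinds overlapped, except that GFP resting libraries lay below all resting minusFoxp3 libraries. For *Cd24a*, thymic libraries (17.5 to 37.0 CPM) lay above all others, and every other kind stayed at or below 7.28 CPM. For *Dntt*, thymic (median 3.62 CPM) and resting GFP (3.17 CPM) cells came first, with overlapping ranges, followed by resting plusFoxp3 (1.75), infant (0.928) and resting minusFoxp3 cells (0.917). For *Cd8a*, thymic libraries (2.73 to 8.55 CPM) lay above all others, of which the highest had 2.53 CPM in resting and 2.19 CPM in active minusFoxp3 cells. For *Ccr9* active degron (149 CPM), active GFP (133), active plusFoxp3 (126), active minusFoxp3 (123) and thymic cells (120) overlapped, and resting GFP (73.9), resting plusFoxp3 (32.1), resting minusFoxp3 (27.2) and infant cells (21.8) followed.

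The reversible allele asked how the genes respond once Foxp3 is made. *Cd4* was called in both states. In resting cells *Cd4* was at 405 and 383 CPM in plusFoxp3 and at 660.0 and 651 CPM in minusFoxp3 libraries on day 3, and at 316 and 335 against 708 and 672 CPM on day 28. PlusFoxp3 libraries lay below minusFoxp3 libraries on 5 of 5 days in both states, day 0 included. Averaged over days 3 to 28, resting *Cd4* was 1.76-fold lower with Foxp3 (log2 -0.81 ± 0.083 SE, edgeR adjusted p = 1.98e-05) and active *Cd4* 1.74-fold lower (log2 -0.80 ± 0.094 SE, edgeR adjusted p = 4.3e-05). The genes called in these comparisons made up 4.73% of 20520 genes in resting and 6.22% of 20776 in active cells. On day 28 alone, where 0.945% and 1.85% of genes were called, *Cd4* was lower in resting cells (log2 -1.07 ± 0.166 SE, edgeR adjusted p = 0.00476) and in active cells (log2 -1.01 ± 0.189 SE, edgeR adjusted p = 0.00768). The day 28 call was lost in resting cells without minusFoxp3 replicate 1 (edgeR adjusted p = 0.0750) or plusFoxp3 replicate 1 (0.0708), and in active cells without minusFoxp3 replicate 1 (0.107) or plusFoxp3 replicate 2 (0.122).

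The *Cd4* gene is also part of the design. CreERT2 is driven by *Cd4* in the plusFoxp3 mice and absent from the minusFoxp3 mice, so the genotypes differ before treatment in a construct that uses this gene's control, and the cells were sorted on CD4 protein. On day 0 resting *Cd4* was at 447 and 449 CPM in plusFoxp3 and at 463 and 644 CPM in minusFoxp3 cells, with a log2 difference of -0.32 and an edgeR adjusted p of 0.494. Active day 0 cells had 597 and 535 CPM against 787 and 1031 CPM, a log2 difference of -0.67 with an unadjusted p of 0.00248 and an edgeR adjusted p of 0.999. Of all genes 0.00487% were called on day 0 in resting and 0.00481% in active cells, which is 1 gene in each state, and 0 of the maturation genes. At an unadjusted p under 0.05 these numbers were 2219 and 951 genes with 1 and 2 maturation genes, and DESeq2 called 45 and 17 genes with 0 maturation genes. Relative to day 0, the later *Cd4* difference was -0.50 on the log2 scale in resting cells (edgeR adjusted p = 0.338) and -0.13 in active cells (edgeR adjusted p = 0.969). No maturation gene passed with edgeR or DESeq2 in that comparison, in which edgeR called 0.136% of genes in resting and 0.472% in active cells, and 3 and 1 maturation genes had an unadjusted p under 0.05. GFP Treg cells, which carry neither CreERT2 nor the stop cassette, had 537 and 457 CPM of *Cd4* in resting and 735 and 618 CPM in active cells. Foxp3 and the CreERT2 genotype cannot be told apart in the *Cd4* difference.

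**Figure D4:**
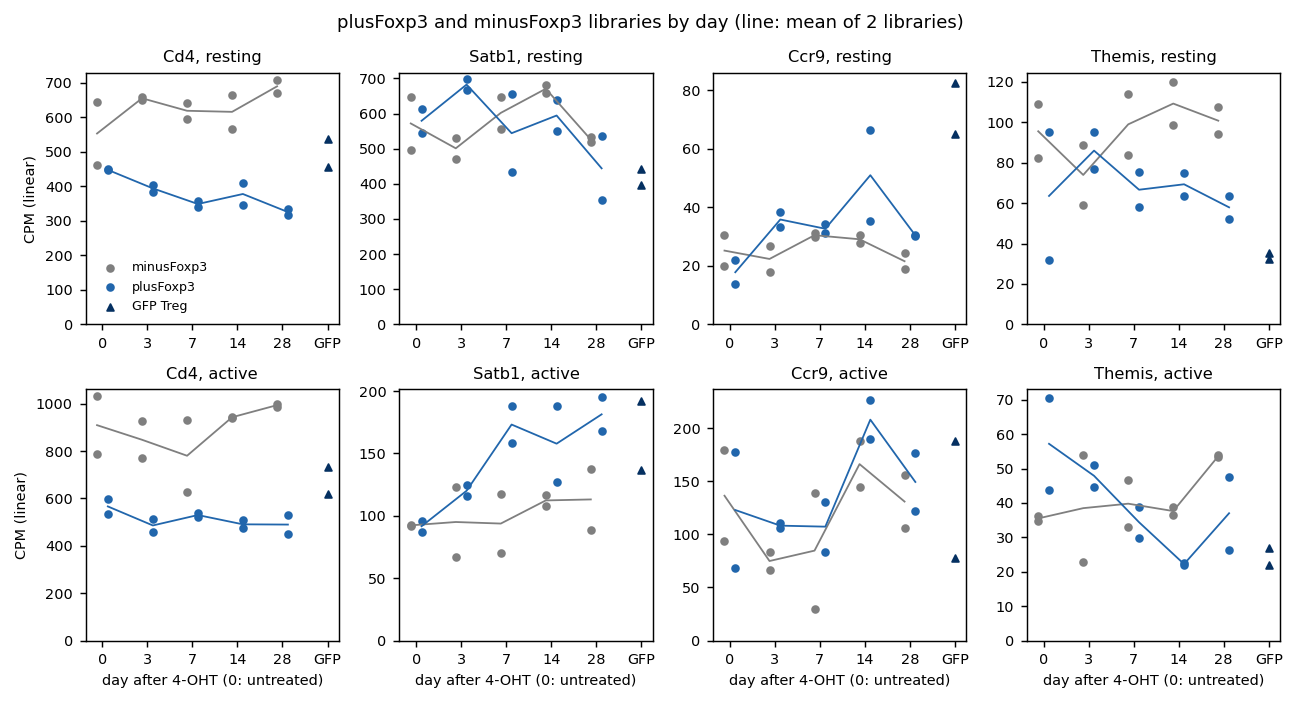
Levels of *Cd4*, *Satb1*, *Ccr9* and *Themis* in resting (top) and active (bottom) plusFoxp3 and minusFoxp3 libraries by day after 4-OHT, in CPM on linear axes, with 1 point per library and lines through the means of 2. Triangles are GFP Treg libraries. *Cd4* of plusFoxp3 cells lies below that of minusFoxp3 cells on each day. Active *Satb1* of plusFoxp3 cells reaches 188 CPM on day 7 and, in 1 library, 195 CPM on day 28.

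*Ccr9* was the other called gene in resting cells, 2 of the 8 tested. It had 33.1 and 38.6 CPM in plusFoxp3 and 26.8 and 18.0 CPM in minusFoxp3 libraries on day 3, and 30.7 and 30.2 against 24.4 and 18.8 CPM on day 28. PlusFoxp3 lay higher without overlap on 4 of 5 days, day 0 being the exception. The mean difference over days 3 to 28 was 1.46-fold (log2 0.55 ± 0.147 SE, edgeR adjusted p = 0.0440), and it was lost in 13 of 16 fits that left out 1 library, at edgeR adjusted p of 0.0522 to 0.132. GFP resting cells had 65.3 and 82.4 CPM of *Ccr9*, 2.96-fold above untreated minusFoxp3 cells (log2 1.57 ± 0.300 SE, edgeR adjusted p = 0.00702), a comparison in which 2.91% of genes were called. This call was lost without minusFoxp3 day 0 replicate 2 (edgeR adjusted p = 0.0822) or GFP replicate 2 (0.0597). In active cells *Ccr9* lay at 68.0 to 227 CPM with and 30.04 to 188 CPM without Foxp3.

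*Dntt* in resting cells was at 0.729 and 0.778 CPM in plusFoxp3 and at 0.330 and 0.626 CPM in minusFoxp3 libraries on day 0. On day 28 it was at 1.89 and 2.67 against 1.45 and 0.924 CPM. PlusFoxp3 lay higher without overlap on 3 of 5 days, untreated day 0 included. The mean log2 difference of days 3 to 28 was 0.68 ± 0.208 (SE). Its edgeR adjusted p was 0.0767 and its DESeq2 adjusted p 0.0256. On day 0 the log2 difference of *Dntt* was already 0.64, with an edgeR adjusted p of 0.599. Against untreated minusFoxp3 cells, resting GFP Treg cells had 6.64-fold more *Dntt* (log2 2.73 ± 0.443 SE, edgeR adjusted p = 0.00195). That call was lost when the 4 libraries were fitted alone (edgeR adjusted p = 0.0602).

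*Themis* in resting cells was at 52.2 and 63.6 CPM with and 94.0 and 108 CPM without Foxp3 on day 28, and lower without overlap on 3 of 5 days. Its mean log2 difference of -0.43 had an edgeR adjusted p of 0.229, which became 0.00977 without the filter on low counts. On untreated day 0 the log2 difference of *Themis* was already -0.60, with overlapping libraries and an edgeR adjusted p of 0.554. GFP resting cells, at 35.1 and 32.2 CPM, were 2.81-fold below untreated minusFoxp3 cells (log2 -1.49 ± 0.370 SE, edgeR adjusted p = 0.0382), a call lost without any one of the 4 libraries compared. *Satb1* (log2 0.00), *Cd24a* (-0.38) and *Cd8a* (-0.45) did not pass in resting cells over days 3 to 28. On day 28 *Cd24a* was at 2.05 and 0.703 CPM with and 4.80 and 3.72 CPM without Foxp3, without overlap, a log2 difference of -1.62 with an edgeR adjusted p of 0.172 that DESeq2 called (adjusted p = 0.0260), as edgeR did without the filter on low counts (adjusted p = 0.0346). On day 0 its log2 difference was already -1.60, with an unadjusted p of 0.00414 and an edgeR adjusted p of 0.428. *Rag1*, which had just enough reads to be tested there, differed by -0.42 with an edgeR adjusted p of 0.555.

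In active cells 3 of 7 tested genes were called over days 3 to 28, *Cd4*, *Satb1* and *Dntt*. *Satb1* was at 96.2 and 87.1 CPM in plusFoxp3 and at 92.0 and 92.7 CPM in minusFoxp3 cells on day 0. On day 7 it was at 158.5 and 188 against 70.2 and 117 CPM, and on day 28 at 195 and 168 against 88.4 and 138 CPM. The library at 195 CPM, replicate 1, held 209 CPM of the CD8 T and NK cell markers. The median over the 22 active reversible-allele and GFP libraries was 30.7 CPM. The part of such cells in the *Satb1* difference was not tested. PlusFoxp3 lay higher without overlap on 3 of 5 days. The mean difference was 1.54-fold (log2 0.63 ± 0.144 SE, edgeR adjusted p = 0.0139), and it was lost without day 28 minusFoxp3 replicate 1 (edgeR adjusted p = 0.0598). Active GFP cells had 136 and 192 CPM of *Satb1*, and 10% of all genes but 0 of the 7 maturation genes were called by edgeR between them and untreated minusFoxp3 cells. In that comparison 2 maturation genes had an unadjusted p under 0.05 and DESeq2 called 1, *Satb1*, at an adjusted p of 0.0496 against 0.0803 with edgeR.

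*Dntt* in active cells was high in 5 of 10 minusFoxp3 libraries. PlusFoxp3 libraries had 0 to 0.202 CPM, 0 to 10 reads each. MinusFoxp3 replicates 1 and 2 had 0.0226 and 3.78 CPM on day 0, 1.14 and 0.164 on day 3, 0.0228 and 4.38 on day 7, 0.0192 and 2.96 on day 14, and 0.270 and 1.79 on day 28. On each day 1 of the 2 libraries was high and the other was near the plusFoxp3 level. The mean log2 difference was -3.95 ± 1.117 (SE), 15.5-fold lower with Foxp3, with an edgeR adjusted p of 0.0452. It fell to -2.34 without day 7 minusFoxp3 replicate 2 (edgeR adjusted p = 0.506) and to -2.42 without day 14 minusFoxp3 replicate 2 (edgeR adjusted p = 0.613). With the replicate number as a block it was not called (edgeR adjusted p = 0.0773).

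The same 5 libraries were those with markers of plasmacytoid dendritic cells, which can express *Dntt*. Their sum over 8 such markers was 154 to 615 CPM, and *Siglech*, a surface lectin that defines these cells, was at 22.8 to 125 CPM. In the other 5 active minusFoxp3 libraries the sum was 69.5 to 91.7 CPM and *Siglech* 2.37 to 5.05 CPM. In the 10 active plusFoxp3 libraries the sum was 51.6 to 124 CPM and *Siglech* 0.174 to 0.671 CPM. A list of 6 myeloid markers summed to 17.7 to 41.8 CPM in the 5 libraries and 4.61 to 24.8 CPM in the other 5. The part of either kind of cell in the *Dntt* difference was not tested. Leaving these libraries out cannot test it, since they are also the ones high in *Dntt*. *Cd8a* lay at 0.341 to 2.19 CPM in the 5 libraries and at 0 to 0.230 CPM in the other 5, and *Ccr9* overlapped, at 82.98 to 179 against 30.04 to 188 CPM. Without the 5 libraries too few *Dntt* reads were left for a test within active cells. *Cd4* (log2 -0.79, edgeR adjusted p = 2.07e-04) and *Satb1* (log2 0.68, edgeR adjusted p = 0.00680) were called without them.

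**Figure D5:**
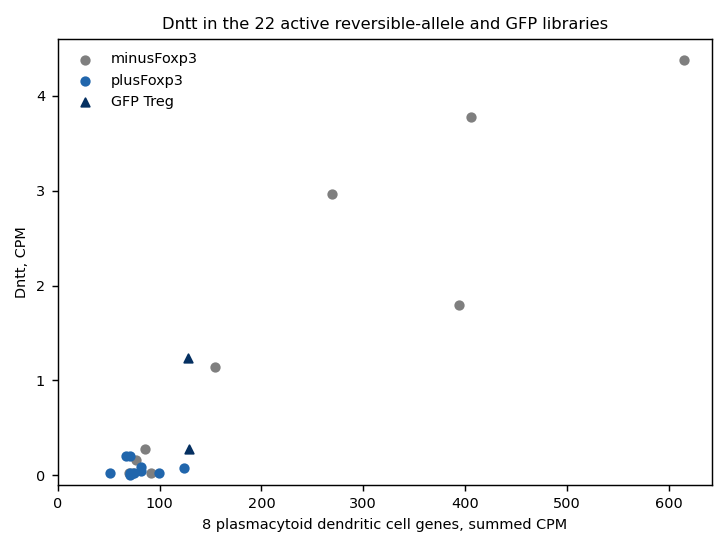
*Dntt* (CPM) against the summed level of 8 plasmacytoid dendritic cell markers (CPM) in the 22 active reversible-allele and GFP libraries, 1 point per library. The 5 minusFoxp3 libraries above 150 CPM of markers have 1.14 to 4.38 CPM of *Dntt*, and of the other 17 the highest is an active GFP library with 1.23 CPM.

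Whether the Foxp3 difference itself varied between active and resting cells was tested for 20790 genes, of which 1.82% were called. *Dntt* was the maturation gene called, with a difference of -4.65 ± 1.117 (SE) on the log2 scale and an edgeR adjusted p of 0.0267. Without the 5 libraries high in plasmacytoid dendritic markers it was -0.57 with an edgeR adjusted p of 0.844. These are also the 5 active minusFoxp3 libraries high in *Dntt*, so the smaller value follows from the choice of libraries. *Satb1* had a difference of 0.61 with an edgeR adjusted p of 0.0957, so the rise of *Satb1* in active cells was not shown to differ from the value near 0 in resting cells.

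The wider lists were read in the same comparisons of plusFoxp3 with minusFoxp3 cells, with log2 differences in brackets. In resting cells over days 3 to 28, edgeR called 0 of 8 double-positive genes and 0 of 10 end-joining genes, beside 4.73% of all genes. Of the Notch and early list *Gata3* was higher (log2 0.45) and *Tcf7* lower (-0.82), of the positive selection list *Cd2* was higher (0.30), and of the exit list *Itgae* was higher (3.44) and *Ccr7* (-0.43), *S1pr1* (-0.33) and *Lef1* (-0.30) lower. In active cells 6.22% of all genes were called. There 1 of 8 double-positive genes was called, 1 of 8 Notch and early genes, 0 of 10 end-joining genes, 4 of 12 positive selection genes and 3 of 11 exit genes. Of these *Cd1d1* (0.50), *Itm2a* (0.75), *Cd2* (0.54), *Zbtb7b* (0.46), *Itgae* (1.94), *Lef1* (0.68) and *Foxo1* (0.32) were higher, and *Tcf7* (-0.99) and *Egr2* (-0.56) lower. *Tcf7* encodes TCF1, a factor of T lineage commitment, and *Itgae* encodes CD103, an integrin of many activated Treg cells. *Lef1* had opposite signs in the resting and active state, and the difference between them passed the test (log2 0.96, edgeR adjusted p = 1.38e-04).

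Over the 28 group means of log2(CPM + 1), which span both counting settings, *Cd24a* was most like *Cd8a* (Pearson r = 0.847) and *Satb1* (0.794) among the 10 genes. *Satb1* was like *Themis* (0.774) and opposed to *Ccr9* (-0.680). Among 13995 other genes the closest to *Satb1* were *Ndrg3* (0.980), *C230085N15Rik* (0.976), whose span lies inside *Satb1*, and *Bend5* (0.975). The closest to *Themis* were *Gm45552* (0.926), *S1pr1* (0.918) and *Rasgrp2* (0.914), and to *Ccr9* they were *Atp6ap1* (0.921), *Tcn2* (0.906) and *Laptm4b* (0.902). *Cd24a* had *Hsdl2* (0.953), *Gm16120* (0.953) and *Ddx60* (0.952), *Cd4* had *Qrfp* (0.812), *Ptpn22* (0.809) and *Pde7a* (0.782), and *Dntt* had *Ctsl* (0.830), *Tcf7l2* (0.826) and *P2ry14* (0.773). The group means of active minusFoxp3 cells hold the 5 libraries described above.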

How the data were processed

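RNA of the 64 libraries was read as paired-end SMART-Seq libraries. The authors deposited unnormalised counts of read pairs per gene name, made by alignment to mm39 (GRCm39) and counting with featureCounts 2.0.3 over GENCODE genes without strand. The study's methods name STAR as aligner and the submitters' processing notes name Bowtie2. Per the file headers, the counts of 20 degron libraries were limited to primary alignments, without chimeras, at mapping quality 30 or more, and the headers of the other 44 show no such filter. No test crossed the settings.

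CPM is counts scaled to the library total. Genes with a mean count of at least 10 in a fit were tested with edgeR 4.0.16 (TMM factors, robust quasi-likelihood F test) in R 4.3.3, and called at a Benjamini-Hochberg adjusted p of 0.05. The degron contrasts were fitted on the libraries compared. The reversible-allele contrasts were fitted over 22 libraries of a state, or over 44 libraries where states were compared. Standard errors follow from the fold change and F. Folds against groups without reads use a floor of 3 counts, and intervals and floors cover counting error only. DESeq2 1.42.0 was the other test. All fits were first tested on simulated data in which 200 genes changed. Replicates were compared by a chi-square of their counts, which was at least 15.8 per gene over 46 pairs, so no library was counted as a copy of another.

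The 10 genes and all lists were chosen with earlier results of these data known. The naming rule takes the 10 genes in every comparison, *Foxp3*, up to 3 called genes per list and direction, and the 3 genes most like each gene with a mean of at least 1 CPM in the adult degron libraries. *Siglech* and other markers come from the marker lists. Some genes of the lists are not reported here. Other settings tried were DESeq2, RLE size factors, all genes without a filter, a replicate block, single genotypes, the compared libraries alone and leaving out replicates. The comparisons relative to day 0 and those without the 5 libraries high in plasmacytoid dendritic markers were chosen after seeing the data.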

Additional observations from a re-analysis of the deposited data

Results flagged for a closer look

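*Ccr9* in infants was flagged because one library stood apart from the others of its title. Titled WT replicate 4 had 19.2 CPM against 30.5 to 32.6 CPM in the other 3, a gap above the limit of Dixon's outlier test for groups of 4. Of 15 groups of values tested in this way 1 was flagged, and chance flags about 1 in 20.

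*Dntt* was flagged because its Foxp3 difference over days 3 to 28 was unlike in active and resting cells by an interaction test, with a difference of -4.65 on the log2 scale and an edgeR adjusted p of 0.0267. The value without the 5 active minusFoxp3 libraries high in plasmacytoid dendritic markers was -0.57, with an edgeR adjusted p of 0.844. Those 5 libraries are also the ones high in *Dntt*, so that value follows from the choice of libraries. The part of plasmacytoid dendritic cells in the result was not tested.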

How the results depend on the processing

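No called value changed sign. *Dntt* between active and resting minusFoxp3 cells, 0.49 on the log2 scale and not called, was -2.28 without replicate 2. It was -4.03 without the 5 libraries high in plasmacytoid dendritic markers, which are also those high in *Dntt*. Numbers are maturation genes called, with the value reported above first. With DESeq2 the genotype difference between thymus and active cells gave 1 in place of 0, infants 2 in place of 0, resting day 28 cells 2 in place of 1 and active GFP cells 1 in place of 0. Without the filter on low counts, resting day 28 gave 3 (884 of all genes), active days 3 to 28 gave 5, active day 0 gave 2 (337), active day 28 gave 3 (1174), active GFP cells 1 (2956), GFP cells between states 3 (1411), the interaction 2, and the comparisons relative to day 0 gave 1 in each state (743 in resting and 684 in active cells). With only the 4 libraries compared, resting day 28 gave 0. Without the 5 libraries high in plasmacytoid dendritic markers the interaction gave 0 and active versus resting minusFoxp3 gave 7. Leaving out single libraries or replicate numbers gave 5 to 6 for thymus versus active, 0 to 1 for the genotype difference between them, 0 to 3 for infants, 1 to 2 for resting days 3 to 28, 0 to 1 for resting day 0, 0 to 1 for resting day 28, 1 to 2 for resting GFP cells, 1 to 3 for active days 3 to 28, 0 to 1 for active day 28, 5 to 6 for active versus resting minusFoxp3, 0 for GFP cells between states, 0 to 1 for the interaction and 0 to 2 for resting cells relative to day 0. In fits of both states, leaving out a replicate number left 1 library per group, and the spread was then taken over days.

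Replicate numbers were not taken to pair the samples, and a pairing of resting with active libraries was not examined. Deviations from the group means correlated between same-numbered libraries at 0.00871 to 0.0759 for thymus and active cells and at -0.0301 to 0.351 over the 10 comparisons of plusFoxp3 with minusFoxp3 groups, where 2 pairs a group and correlations on both sides of 0 do not show a pairing. With a replicate block, active GFP cells gave 1 maturation gene in place of 0 and the interaction 2 in place of 1, and active *Dntt* over days 3 to 28 had an edgeR adjusted p of 0.0773.

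Over all genes, thymus versus active gave 2322 calls in WT libraries alone against 5084. Without the count filter, resting days 3 to 28 gave 1907 against 970 calls, active days 3 to 28 gave 2242 against 1292 and the interaction 1144 against 378, while DESeq2 gave 1572, 1913 and 746. Infants gave 1 to 1774 calls when a library was left out. Depth limits *Rag1*, *Rag2* and *Ptcra*, which stayed at a few reads per library, and the cause of the differences between settings was not tested.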
